A study of Mus musculus with 5 samples.

Results

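The 10 genes described here are the growth genes H19, Igf2, Igf2r, Dlk1, Meg3, Peg3, Peg10, Cdkn1c, Grb10 and Mest, which mice express mainly from 1 parental copy. They were chosen by symbol from the 29267 genes of the deposited tables, and all 10 were found there and passed the filter on low values, averaging 1 count or more in each 1000000 (CPM) across the libraries of a comparison. RNA came from mouse embryonic fibroblasts (MEF) of the ICR strain, all of them in the course of reprogramming towards pluripotency. There were 5 groups with 1 library each. At day 4, cells expressed Flag as the control or CypD (cyclophilin D, the mitochondrial regulator encoded by Ppif). At day 8, cells had no treatment (control), mastoparan (a peptide of wasp venom) or the herbicide paraquat, which cycles electrons onto oxygen. The genotype label of all 3 day-8 libraries also reads as CypD-expressing, while the design text names CypD at day 4 alone. Ppif stood at 44.2 CPM in the Flag library and 761 in the CypD library, and at 29.2, 33.3 and 34.2 in the control, mastoparan and paraquat libraries of day 8. The day-8 libraries therefore did not carry the raised Ppif of the CypD library, and they are called by treatment here. The reprogramming factors, the doses and whether cells of several embryos were pooled were not stated in the labels. With 1 library per group no difference has a replicate check, no test between conditions was made, and 95% intervals cover counting error only.

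Genomic imprinting silences 1 copy of a gene according to the parent it came from. DNA methylation laid down in the egg or sperm marks control regions, and the mark must survive cell division to keep 1 copy silent. Many paternally expressed genes promote growth of the fetus and placenta and many maternally expressed genes restrain it. Igf2, Dlk1, Peg3, Peg10 and Mest are expressed from the paternal copy, and H19, Igf2r, Meg3 and Cdkn1c from the maternal copy, as is Grb10 outside the brain. Fibroblasts of the embryo express many of these genes, and the state of the Dlk1-Meg3 region is a known point of difference between reprogrammed cell lines. Neither the parental origin of the transcripts nor DNA methylation was measured here.

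Promoter windows from 250 bases before to 50 bases after the transcription start were available from RefSeq (GRCm38.p6, the same assembly as mm10) for 7 of the 10 genes, with 14 starts. Of these 14 windows 11 held more CpG dinucleotides than the median window of 7, and each of the 7 genes had at least 1 such window. The 4 windows below belong to genes whose level between day 4 and day 8 differed by more than 1.5-fold with an interval that excluded 1, and the start with the most CpG is shown for each. Capitals mark TGCCGC or its reverse complement GCGGCA, the letters that the imprint-maintaining protein Zfp57 is known to bind when methylated. Both strands were searched, and 3813 of 32851 promoter windows (11.6%) held the letters. A match describes the sequence and is not a site shown to be used.
Mest, chr6:30737800-30738099, + strand, 17 CpG: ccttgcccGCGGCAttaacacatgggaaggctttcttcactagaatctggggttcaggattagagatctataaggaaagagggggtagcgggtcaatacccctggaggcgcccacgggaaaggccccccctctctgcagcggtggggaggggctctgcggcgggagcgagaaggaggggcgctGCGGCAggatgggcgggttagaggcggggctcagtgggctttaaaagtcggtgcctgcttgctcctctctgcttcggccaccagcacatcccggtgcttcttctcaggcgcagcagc
Igf2, chr7:142658755-142659054, - strand, 24 CpG: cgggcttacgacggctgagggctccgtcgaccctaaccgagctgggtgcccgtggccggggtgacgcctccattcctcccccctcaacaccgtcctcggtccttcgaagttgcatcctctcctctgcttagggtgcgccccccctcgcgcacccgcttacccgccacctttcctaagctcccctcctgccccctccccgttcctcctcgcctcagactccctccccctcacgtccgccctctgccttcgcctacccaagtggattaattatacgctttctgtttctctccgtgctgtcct
Peg3, chr7:6730370-6730669, - strand, 13 CpG: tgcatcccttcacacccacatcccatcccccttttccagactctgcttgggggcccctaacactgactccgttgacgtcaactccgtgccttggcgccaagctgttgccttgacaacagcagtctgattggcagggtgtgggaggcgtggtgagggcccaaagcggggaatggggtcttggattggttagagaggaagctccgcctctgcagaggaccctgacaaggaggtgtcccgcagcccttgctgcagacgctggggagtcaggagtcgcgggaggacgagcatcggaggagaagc
Meg3, chr12:109540746-109541045, + strand, 13 CpG: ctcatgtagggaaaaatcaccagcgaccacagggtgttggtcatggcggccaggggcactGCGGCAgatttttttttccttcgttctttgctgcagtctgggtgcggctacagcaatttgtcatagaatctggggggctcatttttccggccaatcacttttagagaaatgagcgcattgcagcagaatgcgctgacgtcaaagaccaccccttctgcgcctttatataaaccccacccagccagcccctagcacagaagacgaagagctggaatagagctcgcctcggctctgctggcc

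The Mest window holds the letters at 2 places and the Meg3 window at 1, while the Igf2 and Peg3 windows shown hold none. Over all 14 windows, 5 windows of 4 genes (Mest, Meg3, Grb10 and Igf2, the last in another of its starts) held them. Of these 5, 2 are Mest windows that overlap nearly in full, chr6:30737800-30738099 and chr6:30737803-30738102, and hold the letters at the same places. Both also count among the 11 windows above the CpG median.

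Members also host microRNAs, which these tables of longer RNAs did not measure. miR-335 lies in an intron of Mest and miR-675 in an exon of H19, so their mature sequences (RefSeq, GRCm38.p6) are given with the seed, bases 2 to 8, in capitals. The seeds differ.
miR-335-5p, chr6:30741314-30741336, + strand: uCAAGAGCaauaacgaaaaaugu
miR-675-5p, chr7:142577112-142577133, - strand: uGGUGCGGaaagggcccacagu

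Total expected counts per library ran from 2426015 (paraquat) to 3426702 (CypD), so that 3 counts stood for 0.869 to 1.30 CPM. Levels below are CPM scaled by TMM factors unless TPM, a level per transcript length, is named. All 13 fibroblast markers were detected, and they summed to between 3893 and 3921 CPM at day 4 and to between 3848 and 4153 at day 8. Of the 13, 6 were lower and 4 higher in every day-8 library than in both of day 4. Epithelial markers summed to 220 and 233 CPM at day 4 and to between 714 and 815 at day 8, with all 9 higher in every day-8 library. Pluripotency markers were low, at 11.8 and 16.5 CPM against 36.8 to 42.8, with Dppa4 at 0. Trophoblast markers, of interest because placenta expresses many imprinted genes, summed to 4.34 and 5.92 CPM against 8.43 to 12.3, with Cdx2, Prl3d1 and Tpbpa at 0. Muscle markers (4.74 and 4.92 against 5.97 to 10.4 CPM; Myod1, Myog and Myf5 at 0), blood markers (6.71 and 8.69 against 15.8 to 19.1; Adgre1 and Hba-a1 at 0), endothelial markers (52.5 and 55.9 against 48.96 to 60.7; Cdh5 and Emcn at 0) and neural markers (226 and 235 against 142 to 168) were also present at these levels. Some of these sums rested on few genes. In Flag, Tek gave 50.1 of the 52.5 endothelial CPM, and Nes and Tubb3 gave 159 and 57.6 of the 235 neural CPM. In control, Cd68 gave 17.2 of the 19.1 blood CPM. The part of any of these markers in the differences between days was not tested.

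Per transcript length, H19 had the highest median of the 10 genes over the 5 libraries, at 278 TPM (range 237 to 287). Grb10 followed at 192 TPM (152 to 203) and Meg3 at 149 (99.0 to 173), with ranges that overlapped each other. Igf2 came next at 47.2 TPM (35.4 to 71.3) and Cdkn1c at 32.1 (20.8 to 34.5), apart from each other and, for Igf2, from Meg3. The lower places were held by Igf2r at 16.0 TPM (9.48 to 22.8), Dlk1 at 14.2 (10.1 to 19.4), Peg10 at 5.83 (3.38 to 8.37), Peg3 at 5.24 (2.71 to 7.84) and Mest at 4.06 (0.66 to 18.2). Neighbours in this order overlapped, except H19 with Grb10, Meg3 with Igf2, Igf2 with Cdkn1c, and Dlk1 with Peg10. Mest ranked 7 among the 10 in both day-4 libraries and 10 in all 3 of day 8. In scaled CPM, Mest had the widest spread between libraries (highest over lowest 21.3), the other genes with a spread above 1.5-fold lay between Dlk1 (1.61) and Peg3 (2.33), and H19 and Grb10 had a spread of 1.14 each.

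**Figure D1:**
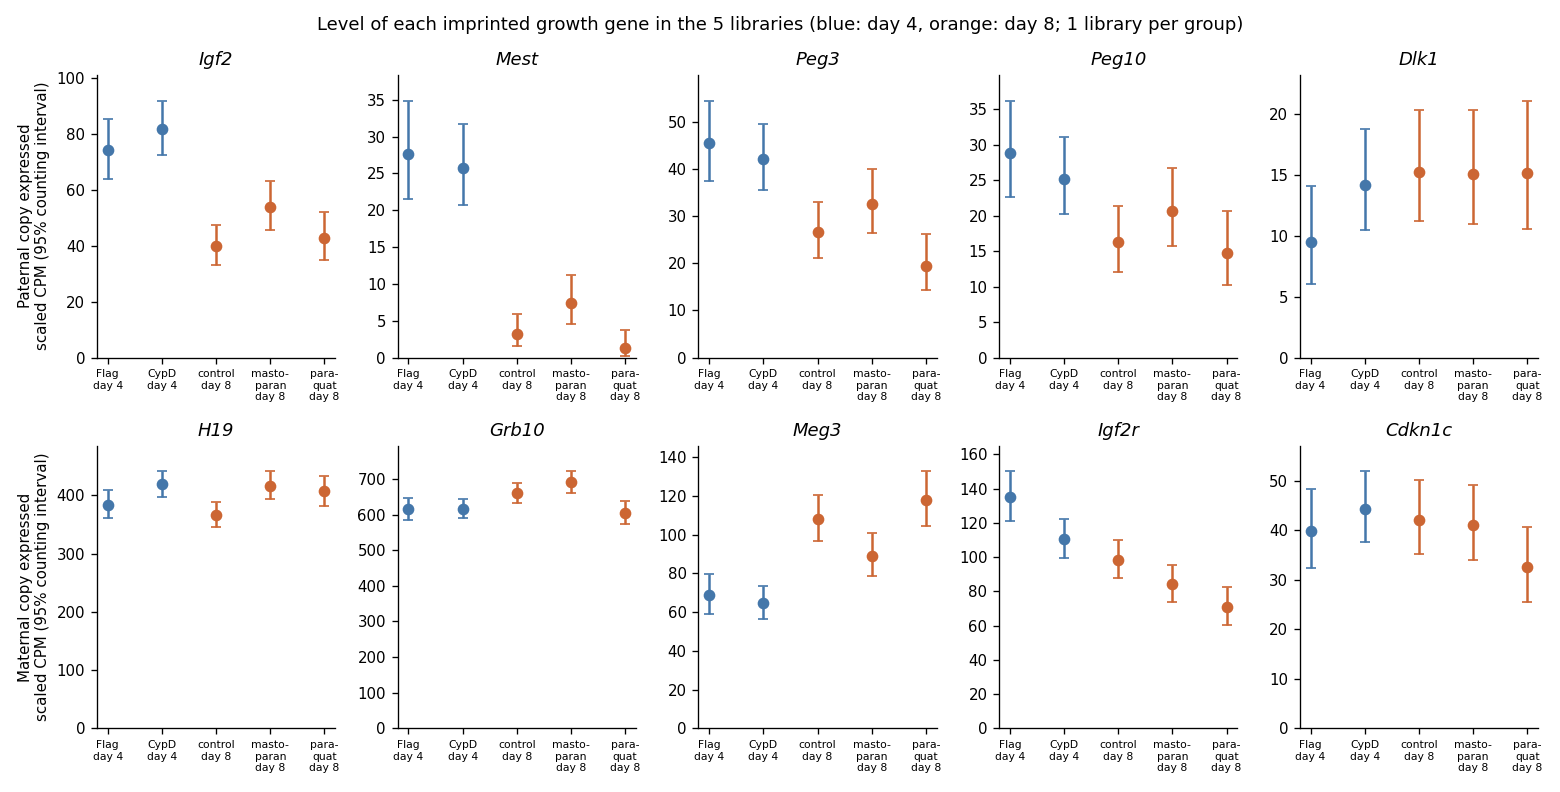
Scaled CPM (vertical axis, from 0) of each of the 10 genes in the 5 libraries (horizontal axis), with 95% counting intervals; blue points are day 4, orange points day 8. Igf2, Mest, Peg3, Peg10 and Igf2r are lower in all 3 day-8 libraries than in both day-4 libraries, and Meg3 and Dlk1 are higher.

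The largest differences among the libraries lay between the days. Igf2, Igf2r, Peg3, Peg10 and Mest were lower in each of the 3 day-8 libraries than in either day-4 library, Dlk1 and Meg3 were higher, and H19, Cdkn1c and Grb10 overlapped. Thus 5 of 10 genes were all below, against 28.1% of the 13584 genes measured, and 2 of 10 were all above, against 28.5%. The days differ in sampling time, in what the cells expressed or were given, and possibly in batch, which cannot be told apart. In bulk RNA, fewer cells of a type and less RNA per cell cannot be told apart either. When the day-8 control was set against the day-4 Flag library, 4 of the 10 genes were at least 1.5-fold lower (12.9% of 13540 genes measured) and 2 were at least 1.5-fold higher (18.6%). Mest alone was at least 2-fold lower (3.95% of all genes). The counting interval lay below 1 for 5 members (18.9% of all genes) and above 1 for 2 (18.4%). The median log2 ratio of the 10 genes was -0.26, against 0.00 over all genes. By parental copy, 4 of the 5 paternally expressed members were among the lower genes and 1 among the higher, with a median of -0.81, while the 5 maternally expressed members had a median of 0.08, with 1 higher and 0 lower.

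Igf2 (chr7:142650766-142666816, - strand, protein coding) encodes insulin-like growth factor 2, the main growth factor of the fetus. It stood at 74.2 CPM in Flag and 82.0 in CypD, and at 39.9 in control, 54.0 in mastoparan and 42.9 in paraquat. The 2 day-4 libraries were the highest and the days did not overlap. Day-8 control was 1.86 times lower than Flag (95% interval 1.47 to 2.35). H19 (chr7:142575529-142578143, - strand), a long noncoding RNA 72.6 kb away that shares enhancers with Igf2 on the opposite parental copy, stood at 384 and 419 CPM at day 4 and at 367, 417 and 407 at day 8. Its days overlapped, and control was 1.05 times lower than Flag (0.960 to 1.14).

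Because both genes are counted in the same library, their share does not depend on scaling between libraries. Igf2 made up 16.2% (Clopper-Pearson interval 14.1 to 18.4) of the counts of both genes in Flag and 16.3% (14.6 to 18.2) in CypD. At day 8 it made up 9.80% (8.21 to 11.6) in control, 11.5% (9.82 to 13.3) in mastoparan and 9.53% (7.81 to 11.5) in paraquat. None of the day-8 intervals reached either day-4 interval. The share within a library shows that the 2 genes changed unequally, not which of them changed.

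Igf2r (chr17:12682406-12769664, - strand) encodes the receptor that takes up Igf2 for breakdown in lysosomes. It stood at 135 CPM in Flag and 110 in CypD, and at 98.3, 84.2 and 71.1 in control, mastoparan and paraquat. The days did not overlap, although the gap between the nearest libraries was 1.12-fold. Control was 1.37 times lower than Flag (1.17 to 1.61). Airn, the noncoding RNA that overlaps Igf2r on the other strand and silences its paternal copy in many tissues, had 4 to 11 counts per library. Whether counting used strand is not stated. Of the 8953 windows of 49 bases in the Igf2r transcripts with an available sequence, 0 occur in transcripts of another gene.

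Grb10 (chr11:11930508-12038683, - strand), an adaptor that dampens insulin and IGF receptor signalling, was the member with the most counts. Its levels were 614 and 617 CPM at day 4 and 661, 690 and 606 at day 8. Paraquat was the lowest library and mastoparan the highest, and the days overlapped. Control was 1.08-fold higher than Flag (1.01 to 1.15). Cobl, an actin-binding protein gene 198 kb away that is also imprinted, stood at 102 and 108 CPM against 171, 152 and 140, so that Grb10 made up 85.8% and 85.1% of the counts of the pair at day 4 and 79.4%, 81.9% and 81.2% at day 8. Ddc, the neighbour of Grb10 that encodes the decarboxylase of dopamine and serotonin synthesis, was also higher at day 8, at 17.4 and 23.5 CPM against 27.9, 33.3 and 29.5.

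Dlk1 and Meg3 are neighbours on chromosome 12 expressed from opposite parental copies. Meg3 (chr12:109541001-109571726, + strand), a long noncoding RNA, stood at 68.7 CPM in Flag and 64.6 in CypD, and at 108, 89.1 and 118 in control, mastoparan and paraquat. All 3 day-8 libraries were higher, and control was 1.57-fold higher than Flag (1.31 to 1.90). Dlk1 (chr12:109452823-109463336, + strand) encodes a transmembrane ligand-like protein that inhibits fat cell formation. It had few reads, 24 and 49 at day 4 and 47, 43 and 35 at day 8, and stood at 9.47 and 14.2 CPM against 15.2, 15.1 and 15.2. The CypD library lay close to day 8, and the interval of the control over Flag ratio, 1.61-fold, included 1 (0.964 to 2.75). In deposited TPM the days overlapped for Dlk1, at 10.1 and 14.2 against 15.9, 19.4 and 11.4.

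Other genes of the same region did not share one pattern. Rtl1, a retrotransposon-derived gene needed in placenta, stood at 12.2 and 12.2 CPM at day 4 and at 17.2, 17.5 and 15.6 at day 8. Rian, a maternally expressed noncoding RNA 32.2 kb from Meg3, stood at 69.8 and 56.8 against 67.8, 56.1 and 43.3. Of the counts of Rian and Meg3 together, Rian made up 50.4% (45.1 to 55.8) in Flag, 46.8% (41.9 to 51.7) in CypD, 38.6% (34.4 to 42.8) in control, 38.6% (33.9 to 43.5) in mastoparan and 26.9% (22.4 to 31.7) in paraquat. The paraquat interval lay below those of the other 4 libraries. Ratios in paraquat also followed transcript length, as given below, and a share of counts does not correct for that. Dlk1 made up 12.1% and 18.0% of Dlk1 plus Meg3 counts at day 4 and 12.4%, 14.5% and 11.4% at day 8, with overlapping intervals.

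Peg3 (chr7:6703892-6730431, - strand), a zinc finger protein linked to maternal behaviour and p53-dependent cell death, stood at 45.4 and 42.0 CPM at day 4. At day 8 it stood at 26.6 in control, 32.6 in mastoparan and 19.5 in paraquat. The days did not overlap, and control was 1.71 times lower than Flag (1.27 to 2.29). Peg10 (chr6:4747306-4760517, + strand), a retrotransposon-derived gene essential for placenta, stood at 28.8 and 25.2 CPM against 16.2, 20.7 and 14.7, and control was 1.78 times lower than Flag (1.22 to 2.60). Sgce, the sarcoglycan gene that starts 0.099 kb from Peg10 on the other strand and is expressed from the same parental copy, did not follow it, with 38 and 48 counts at day 4 and 68, 68 and 32 at day 8. Peg10 made up 65.8% (56.2 to 74.5) and 64.4% (55.8 to 72.5) of the counts of this pair at day 4, and 42.4% (33.3 to 51.8), 46.5% (37.6 to 55.5) and 51.5% (38.9 to 64.0) at day 8. Only the paraquat share, which rests on 66 counts, had an interval that reached those of both day-4 libraries.

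Mest (chr6:30723547-30748465, + strand), which encodes a hydrolase-like protein of mesoderm, had the widest difference, with an uncertainty of counting. It had 70 counts in Flag and 89 in CypD, and 10, 21 and 3 in control, mastoparan and paraquat, or 27.6 and 25.8 CPM against 3.24, 7.37 and 1.30. The nearest libraries of the days were 3.498-fold apart, and control was 8.52 times lower than Flag (4.37 to 18.5). Mest ends across the end of Copg2, a coatomer subunit gene on the other strand, with 912 bases in both genes. Of the 4070 windows of 49 bases in Mest transcripts 864 (21.2%) also occur in Copg2, all of them in the 3 long transcripts, of which they make up between 33.0% and 36.9%. Copg2 stood at 68.3 and 78.2 CPM at day 4 and at 89.5, 82.8 and 93.1 at day 8, opposite to Mest. The counts of both genes together came to 95.9 and 104 CPM against 92.8, 90.2 and 94.4, and their sum in control was 0.967 times that in Flag (0.812 to 1.15). Copg2 supplied 173 of these 243 counts in Flag and 276 of 286 in control, so the sum is a value of the pair and not of Mest. Between 1474 and 1753 windows of each long Mest transcript do not occur in Copg2. How the authors' program divided reads of the shared stretch is not given in the sources used here, so the part of the Mest difference that comes from that division was not tested. No other member shared more than 0.897% of its windows with a gene of over 1 count in any library, apart from Meg3, whose 10.2% of shared windows lie nearly all in Gm26906 and Gm27000, with at most 1 count each.

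Cdkn1c (chr7:143458339-143461050, - strand) encodes p57, an inhibitor of cyclin-dependent kinases. It stood at 39.9 and 44.3 CPM at day 4 and at 42.2, 41.1 and 32.5 at day 8, with paraquat the lowest of the 5 libraries. The days overlapped, and control was 1.06-fold higher than Flag (0.809 to 1.38). Slc22a18, a transporter gene 12.7 kb away and also expressed from the maternal copy, stood at 5.92 and 4.05 CPM at day 4 and at 14.9, 15.1 and 17.3 at day 8. The control over Flag ratio of Slc22a18 was 2.52-fold (1.38 to 4.86). Cdkn1c made up between 54.0% and 65.4% of the counts it shares with Kcnq1ot1, the noncoding RNA that silences this domain on the paternal copy, and the 5 intervals overlapped.

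**Figure D2:**
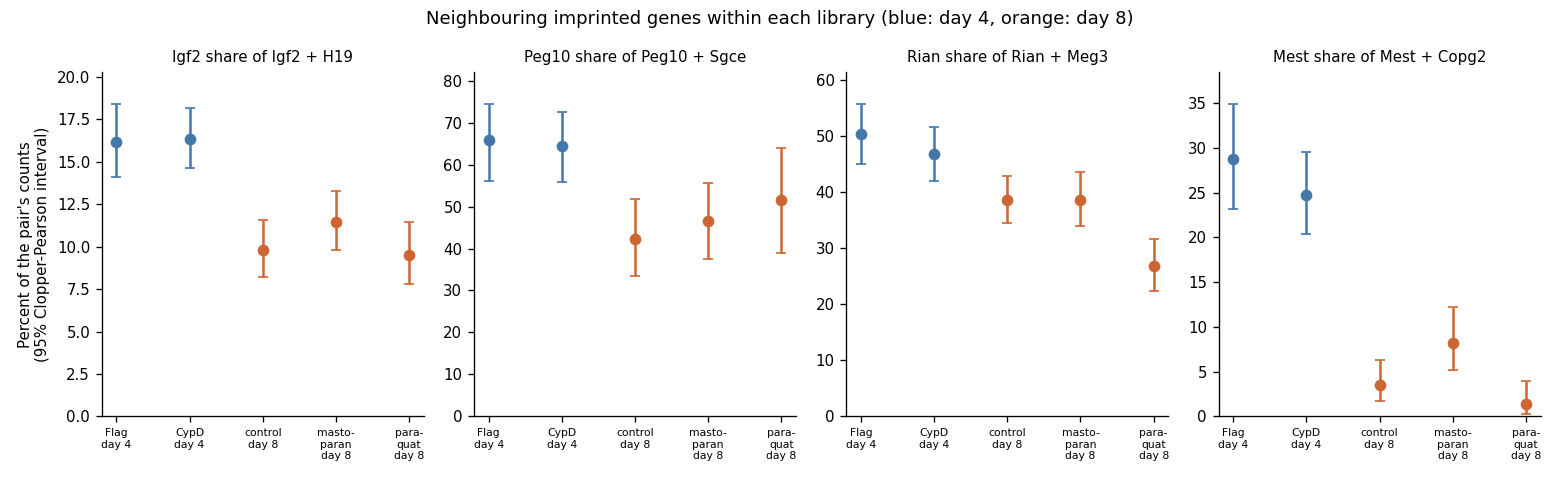
Share of a pair's counts held by the first named gene (vertical axis, percent, from 0) in each library (horizontal axis), with 95% Clopper-Pearson intervals; blue is day 4 and orange day 8. Igf2 makes up 16.2% and 16.3% of its pair with H19 at day 4 and between 9.53% and 11.5% at day 8, and the Mest share carries the uncertainty from the stretch it shares with Copg2.

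Imprinted genes outside the 10 were counted in the same way. They were grouped by the parental copy listed for them in any tissue, and the copy these cells expressed was not measured. Of 19 measured genes listed under the paternal copy, 8 were at least 1.5-fold lower in day-8 control than in Flag (12.9% of all genes). Another 2 were at least 1.5-fold higher (18.6% of all genes), and the median log2 ratio was -0.08. Of 16 measured genes listed under the maternal copy, 0 were lower and 2 higher (Slc22a18 and Cobl), with a median of 0.18. Plagl1, a zinc finger gene that regulates other imprinted genes, stood at 48.1 and 38.8 CPM at day 4 and at 22.1, 25.3 and 14.7 at day 8, and control was 2.18 times lower than Flag (1.61 to 2.98). Peg12, a gene of the Prader-Willi syndrome region, stood at 39.1 and 39.96 against 22.4, 27.0 and 22.5, and control was 1.75 times lower (1.27 to 2.41). Nap1l5 had 13 counts in Flag and 4 in control (3.95 times lower, 1.22 to 16.6), but its days overlapped, with 9 counts in CypD and 8 in mastoparan. Mkrn3 went the other way on 1 and 6 counts, with an interval that included 1. Over all 5 libraries, 28.1% of all genes lay below at every day-8 library and 28.5% lay above. Of 19 other paternally expressed genes, 7 lay below and 4 lay above (Snrpn, Zrsr1, Rtl1 and Kcnq1ot1). Among 17 other maternally expressed genes, 1 (Tssc4) lay below and 5 lay above (Slc22a18, Cobl, Copg2, Ascl2 and Cd81). Some of these gaps were small: Kcnq1ot1 stood at 22.5 and 23.5 CPM against 23.7, 24.6 and 27.7. Ascl2 had 1 to 5 counts per library, and Copg2 shares a stretch with Mest.

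**Figure D3:**
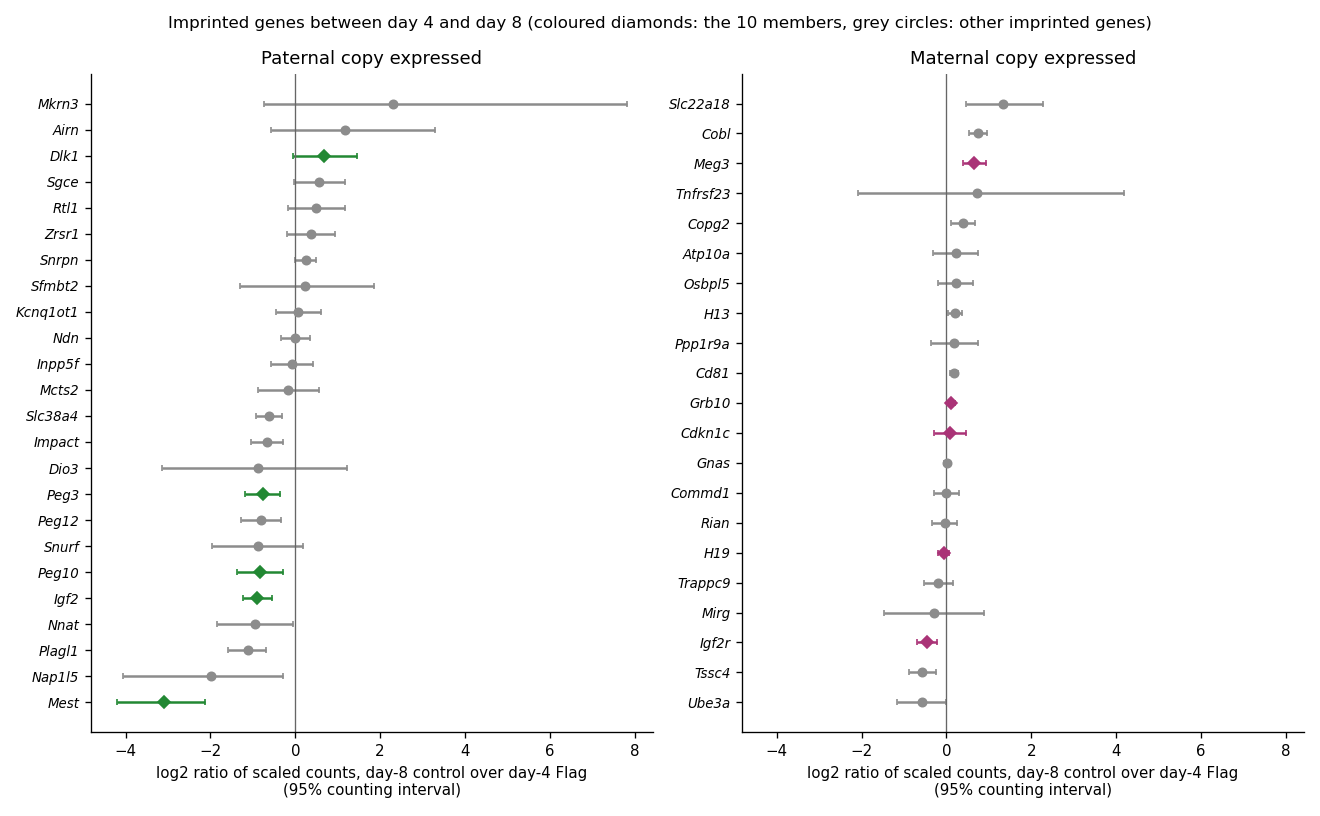
Log2 ratio of scaled counts, day-8 control over day-4 Flag (horizontal axis), for imprinted genes (vertical axis) grouped by the parental copy listed for them. The copy expressed in these cells was not measured. Bars are 95% counting intervals, diamonds the 10 members and grey circles other imprinted genes. Mest, Igf2, Peg10 and Peg3 lie on the lower side with Plagl1, while Meg3 and Dlk1 lie on the higher side with Slc22a18 and Cobl.

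The genes around Igf2 in its signalling axis lay on both sides. Of 19 measured IGF ligands, receptors, adaptors and binding proteins, 5 were at least 1.5-fold higher in control than in Flag (18.6% of all genes). Another 5 were at least 1.5-fold lower (12.9% of all genes), and the median log2 ratio was 0.32. Igfbp2, a secreted IGF-binding protein, stood at 77.7 and 76.4 CPM at day 4 and at 406, 395 and 464 at day 8 (5.22-fold higher in control than in Flag, 4.49 to 6.10). Igf2bp3, an RNA-binding protein that binds Igf2 mRNA, stood at 42.2 and 31.6 CPM against 13.9, 18.9 and 10.8, and control was 3.03 times lower (2.11 to 4.42). Irs2, an adaptor of insulin and IGF receptors, had 19 counts in Flag and 7 in control (3.30 times lower, 1.33 to 9.30), but its days overlapped because CypD had 8. Igf1, the other IGF ligand, had 0 counts in Flag, 13 in CypD and 12 in control.

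Regulators of imprints and of imprinted transcription were mostly lower at day 8. Of 13 measured regulators 6 were at least 1.5-fold lower in control than in Flag (12.9% of all genes). In this list 1 was at least 1.5-fold higher (18.6% of all genes), and the median log2 ratio was -0.57. Plagl1, given above, is counted in this list too. Across the 5 libraries, 11 of 14 lay below at every day-8 library (28.1% of all genes) and 2 above (28.5%). Dnmt1, the maintenance DNA methyltransferase, stood at 262 and 234 CPM against 162, 150 and 118, and control was 1.62 times lower than Flag (1.44 to 1.83). Uhrf1, which brings Dnmt1 to newly copied DNA, stood at 239 and 232 against 136, 133 and 121, and control was 1.76 times lower (1.55 to 1.99). Zfp57, whose letters are marked in the promoters above, was the higher one, at 47.4 and 48.6 CPM against 95.3, 101 and 101 (2.01-fold, 1.62 to 2.51). Dppa3, which protects imprints in the early embryo, had 0 counts in all 5 libraries, which allows up to 0.869 CPM in the deepest library.

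Protein partners and paralogs of the members were the last list. Of 20 measured genes 5 were at least 1.5-fold lower in control than in Flag (12.9% of all genes). Another 2 were at least 1.5-fold higher (18.6% of all genes), and the median log2 ratio was -0.30. Grb7, a paralog of Grb10, stood at 1.97 and 1.16 CPM at day 4 and at 22.4, 21.8 and 26.9 at day 8 (11.3-fold higher, 4.63 to 36.0). Grb14, the other paralog, stood at 24.9 and 20.6 against 11.7, 16.1 and 12.1, and control was 2.13 times lower (1.39 to 3.30). The 3 paralogs thus took 3 courses, with Grb10 near level. Siah1b, a ubiquitin ligase gene whose family partners Peg3, was 2.43 times lower (1.37 to 4.47), on 38 counts in Flag and 19 in control. Siah1a, of the same family, stood at 21.7 and 22.9 CPM at day 4 and at 21.1, 17.9 and 16.9 at day 8. Notch3, a receptor of the pathway that Dlk1 is known to inhibit, was 2.31-fold higher in control than in Flag (1.38 to 4.00). The days overlapped for Notch3, at 8.29 and 9.85 CPM against 19.1, 20.7 and 9.53.

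The most similar profiles across the 5 libraries were sought for the 3 members with the widest range, by the Euclidean distance of centred log2 levels among 10552 genes. For Igf2 these were Utp4 (distance 0.124), Dgkd (0.134) and the imprinted gene Peg12 (0.158), against a median distance of 0.959. For Peg3 they were Ppp2r1b (0.0757), Fads2 (0.117) and Lin9 (0.117), against 1.01. For Mest no gene came near: Hist1h2bq (1.21), a histone gene with near-identical copies, Nup98 (1.45) and Pds5a (1.51) were the closest, against 3.45. With 5 libraries such likeness describes these libraries alone.

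In the CypD library of day 4, the 10 genes lay within 1.5-fold of the Flag control. None was 1.5-fold higher (5.22% of 13244 genes were) or 1.5-fold lower (5.75% were), while Ppif itself was 17.2-fold higher. The median log2 ratio of the 10 genes was -0.04, against -0.02 over all genes. Igf2r was 1.22 times lower in CypD (1.05 to 1.42) and H19 1.09-fold higher (1.01 to 1.18). These were the members whose interval excluded 1. Among all genes it did so for 4.19% on the lower side and 4.13% on the higher side. The lower limit for H19 was 1.005 with TMM factors, and its log2 ratio moved from 0.13 to 0.12 with library totals alone. Dlk1 had the largest ratio, 1.498-fold, on 24 and 49 counts, with an interval that included 1 (0.902 to 2.55). Grb10, the most deeply counted member, had a ratio of 1.00 (0.939 to 1.07). An interval that includes 1 does not show equal levels.

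The lists around them were counted beside the shares of all genes past 1.5-fold at day 4, 5.22% higher and 5.75% lower. Among 20 other paternally expressed genes, 2 passed 1.5-fold on the higher side, Mkrn3 (9 against 1 counts) and Nespas (7 against 3). Another 2 passed it on the lower side, Sfmbt2 (4 against 7) and Nap1l5 (9 against 13). Of 15 other maternally expressed genes 0 were past that fold in either direction. None of 13 regulators of imprints and of imprinted transcription and none of 20 partners and paralogs passed it. In the IGF axis 1 of 18 genes was higher and 2 were lower. The higher one was Igf1, with 13 counts in CypD and 0 in Flag. With Flag taken at the floor, 3 counts, Igf1 was 3.18-fold higher, a value that leaves out the counting error of the 13 counts. Irs2 was 3.24 times lower (1.35 to 8.55), with 8 counts against 19, and Irs1, the related adaptor, had a log2 ratio of -0.71.

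**Figure D4:**
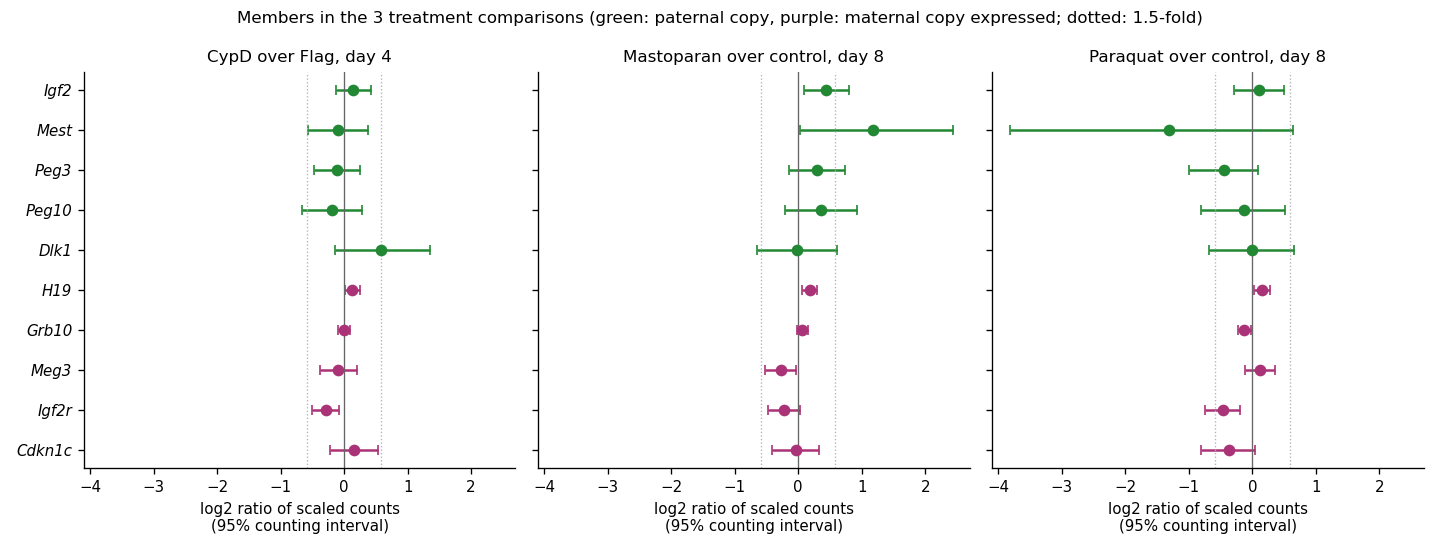
Log2 ratio of scaled counts of the 10 genes (vertical axis) in CypD over Flag, mastoparan over control and paraquat over control (horizontal axis of each panel), with 95% counting intervals and dotted lines at 1.5-fold. Mest lies past 1.5-fold on opposite sides in the 2 day-8 panels, which share the control library.

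In the mastoparan library Igf2, Mest and H19 lay above control and Meg3 lay below it, each with an interval that excluded 1. Mest was at least 1.5-fold higher (5.29% of 13640 genes were) and 0 members were that much lower (5.70% were). Mest had 21 counts against 10 in control, a ratio of 2.27-fold (1.02 to 5.40), and Copg2, with which it shares a stretch, had 236 counts against 276. Igf2 was 1.35-fold higher (1.06 to 1.73) and H19 1.14-fold higher (1.05 to 1.23). Meg3 was 1.21 times lower than in control (1.03 to 1.43). Intervals thus lay above 1 for 3 of the 10 genes (4.08% of all genes) and below 1 for 1 (3.28%). Peg10 (1.28-fold, 0.861 to 1.90), Peg3 (1.23-fold, 0.902 to 1.67), Grb10, Dlk1, Cdkn1c and Igf2r had intervals that included 1. The median log2 ratio was 0.12 over the 10 genes and 0.34 over the 5 paternally expressed ones, against 0.01 over all genes.

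Other imprinted genes were counted beside the shares of all genes past 1.5-fold in mastoparan, 5.29% higher and 5.70% lower. Of 19 other paternally expressed genes 1 was at least 1.5-fold higher (Nap1l5, 8 against 4 counts), with a median of 0.03. Another 2 were lower (Snurf, 5 against 14 counts, and Mkrn3, 3 against 6). None of 17 other maternally expressed genes passed 1.5-fold, and their median was -0.03. In the IGF axis 2 of 19 genes were higher and 3 lower, with a median of 0.10. Among 14 regulators 1 was higher (Ctcfl, 10 against 6 counts) and 1 lower (Zfp445, 5 against 13 counts). Among 20 partners and paralogs 1 was higher (Hey1, 15 against 9 counts).

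In the paraquat library Igf2r and Grb10 lay below control and H19 above it, each with an interval that excluded 1, although Grb10 lay on the other side once a trend along transcript length was removed. Mest was at least 1.5-fold lower (10.5% of 13666 genes were), on 3 against 10 counts, and 0 members were that much higher (8.22% were). Its ratio, 2.50 times lower, had an interval from 0.642 to 14.1, and Copg2 had 215 counts against 276. Igf2r was 1.38 times lower (1.14 to 1.68) and Grb10 1.09 times lower (1.02 to 1.17), while H19 was 1.11-fold higher (1.02 to 1.21). The log2 ratio of H19 was 0.15 with TMM factors, 0.046 with library totals alone and 0.19 with upper-quartile factors. That of Grb10 was -0.13, -0.23 and -0.080 in the same order. Intervals used TMM factors and were not recomputed with the others. Intervals lay below 1 for Igf2r and Grb10, 2 of the 10 genes (9.83% of all genes) and above 1 for 1 (11.3%). The log2 ratios of Peg3 (-0.44), Cdkn1c (-0.37), Peg10 (-0.13), Dlk1 (-0.01), Igf2 (0.10) and Meg3 (0.13) had intervals that included no change. The median of the 10 genes was -0.13, against -0.03 over all genes. Ratios to control also followed transcript length in this library, and with that trend removed the log2 ratio was -0.22 for Igf2r, -0.19 for Peg3 and -0.20 for Meg3, and that of Grb10 turned to 0.07. In deposited TPM 4 members were at least 1.5-fold lower, while the median log2 ratio of all genes was itself -0.29 on that scale.

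The choice of scale bears on directions in the paraquat library. Of all genes past 1.5-fold, 43.9% were higher with TMM factors, 46.3% with DESeq2 size factors, 51.8% with upper-quartile factors, 30.3% with library totals alone, where the median of all genes was -0.13, and 16.9% in deposited TPM. With TMM factors 8.22% of all genes were at least 1.5-fold higher in paraquat and 10.5% lower. Among 19 other paternally expressed genes, 1 was past 1.5-fold on the higher side (Nap1l5, 6 against 4 counts). Another 3 were past it on the lower side (Snurf, 4 against 14 counts, Airn, 4 against 11, and Sgce). Of 16 other maternally expressed genes 1 was higher (Ascl2, 5 against 3 counts) and 2 lower (Osbpl5 and Rian). Rian was 1.56 times lower (1.23 to 2.01) and Osbpl5, a lipid transfer protein gene of the Cdkn1c domain, 1.63 times lower (1.18 to 2.29). Sgce was 1.59 times lower (1.03 to 2.50). In the IGF axis 2 of 19 genes were higher and 5 lower, with a median of -0.16, and Igfbp5, a secreted IGF-binding protein, had 6 counts against 19. Of 14 regulators 1 was higher (Ctcfl, 9 against 6 counts), with a median of -0.21. Another 3 were lower (Zfp445, 3 against 13 counts, Plag1, 1 against 5, and Arid4a, 2.38 times lower, 1.18 to 5.20). Of 20 partners and paralogs 2 were higher (Hey1, 11 against 9 counts, and Dlk2, 20 against 17) and 1 was lower (Notch3, 2.01 times, 1.21 to 3.44).

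Mastoparan and paraquat were compared with the same control library, so their ratios are not independent. Among the 3 day-8 libraries, mastoparan was the highest for H19, Igf2, Peg3, Peg10, Grb10 and Mest, 6 of 10 against 31.2% of all genes. Paraquat was the lowest for Igf2r, Peg3, Peg10, Cdkn1c, Grb10 and Mest, 6 of 10 against 41.4%. Peg3, Peg10, Grb10 and Mest met both conditions, against 20.1% of all genes. Ratios of paraquat to control followed transcript length, as given above, and this order does not correct for it. With that trend removed, Grb10 in paraquat lay on the other side of control. The order of 3 single libraries has no replicate check.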

How the data were processed

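Per the labels' protocols, Trizol was used for extraction and the TruSeq RNA kit, on 1 ug of total RNA, for the libraries. Bowtie2 2.2.5 and mm10 are named in the submitters' processing notes. No source used here states the counting program, its annotation or its strand setting. Each deposited table lists, per the file headers, TPM, FPKM, expected count and effective length by gene. The deposited TPM sum to 1000000 per library. The FPKM column that the authors deposited was not used.

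Gene IDs were matched to GENCODE M21 (28756 of 29267 had a symbol). Expected counts were rounded and scaled with TMM factors (0.951 for paraquat, 1.01 to 1.02 for the others; edgeR 4.0.16, R 4.3.3). Log2 ratios use CPM with a pseudocount of 0.5 and genes that average 1 CPM or more in the compared libraries. Folds are ratios of scaled counts without pseudocount, with exact Clopper-Pearson 95% intervals. Intervals and floors (3 counts) cover counting error only, since amplified reads are not independent molecules. The 4 comparisons were CypD against Flag, mastoparan and paraquat against control, and day-8 control against Flag, with no test because each group has 1 library. The code was tested on simulated data. Python 3.11.15, numpy 2.4.6, scipy 1.17.1, pandas 2.3.3 and matplotlib 3.10.9 were used.

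Named genes are the 10 members, Ppif, up to 4 genes of each list by size of the log2 ratio, 3 nearest profiles for each of 3 members, and expressed neighbours within 200 kb. Genes named to spell out a count of 5 or fewer, Siah1a, and marker genes named for their part of a sum were chosen after their values were seen. The members and lists were chosen with earlier results of these data known. Alternatives were library totals, DESeq2 1.42.0 size factors, upper-quartile factors, a filter of none or 5 CPM, deposited TPM, pseudocounts of 0.1 and 2, leaving out the 20 most abundant genes, and removing medians of 40 length bins. Chosen after seeing the data were leaving out the paraquat library and summing Mest with Copg2.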

Additional observations from a re-analysis of the deposited data

How the results depend on the processing

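No paired analysis was possible because each group has 1 library, and for the same reason no replicate could be left out within a group. The 5 members below at every day-8 library were the same genes under every setting that recomputed them, including without the paraquat library. The number above (2, Dlk1 and Meg3) was 1 in deposited TPM (Meg3), and 3 with upper-quartile factors or without the paraquat library, which add Grb10. With the length trend removed they were Meg3 and Grb10, and 1 member rather than 2 was at least 1.5-fold higher in day-8 control than in Flag. Under paraquat the number at least 1.5-fold lower, 1 in the report, was 4 in deposited TPM and 0 at a minimum of 5 CPM, where Mest is not tested. The Grb10 log2 ratio under paraquat turned from -0.13 to 0.068 with the length trend removed. The summed counts of Mest and Copg2, most of them from Copg2, had log2 ratios of -0.040 under mastoparan and -0.048 between the days, which are values of the pair and not of Mest. The cause was not tested in any of these. Of the single-gene log2 ratios recomputed under the other settings, 98 of 100 kept their sign for CypD (Grb10 near 0 changed), 99 of 100 for mastoparan (Dlk1 changed in deposited TPM), 93 of 99 for paraquat (Dlk1, Igf2, Meg3, Peg10 and Grb10 changed) and 100 of 100 between the days. Mest (3 counts in paraquat) and Dlk1 (24 in Flag) are limited by depth, so that a 1.5-fold difference in Mest between day-8 libraries, or in Dlk1 against Flag, was not detectable at this depth.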
